A study of Mus musculus with 2 samples.

Results

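Neat1 and Malat1 are long noncoding RNAs that stay in the nucleus, and their genes lie next to each other on the minus strand of mouse chromosome 19. They were examined in a list of transcripts deposited with a study of V6.5 cells. These are pluripotent stem cells of the mouse embryo that were cultured on irradiated fibroblasts. RNA treated with DNase gave 2 strand-specific libraries, 1 of polyadenylated RNA and 1 of RNA depleted of ribosomal RNA. The list is 1 pool for the whole series and gives only the position, strand, name, score and blocks of a transcript. Whether every transcript in it comes from these 2 libraries was not stated. The list has no counts of reads, so depth is unknown and the libraries could not be compared. All transcripts on either strand that overlap chromosome 19 from 5790000 to 5850000 on the mm9 build were taken, which gave 43 of 110003. Of these, 28 overlapped the Neat1 bounds (5824710 to 5845478), 12 overlapped the Malat1 bounds (5795690 to 5802672) and 3 lay beside the genes. Transcripts of 1 gene are not replicates, so all values below are descriptions without a test.

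Neat1 is the scaffold of paraspeckles, nuclear bodies that hold RNA-binding proteins such as SFPQ and NONO. It is made as a short form that ends at an ordinary polyadenylation site, and as a long form that reads past this site and is the form needed to build paraspeckles. In human embryonic stem cells paraspeckles are absent until the cells differentiate. Malat1 is one of the most abundant nuclear RNAs of mammalian cells and gathers in nuclear speckles, where splicing factors are stored. The mature 3′ ends of Malat1 and of long Neat1 are not made by polyadenylation: RNase P cuts next to a stretch rich in A, which folds back on U-rich stretches as a triple helix, and releases a small RNA that resembles a transfer RNA.

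The A-rich ends of the genes are shown first, because the list treats them differently. Sense transcripts of Malat1 ran through this end, and none covered the last 5702 bp of Neat1. The sequences are the 120 bases up to the last base of the motif AAAAAGCAAAA, from the unspliced GENCODE M21 transcripts (GRCm38), and capitals mark runs of at least 9 bases that both share.
Malat1, transcript bases 6572 to 6691: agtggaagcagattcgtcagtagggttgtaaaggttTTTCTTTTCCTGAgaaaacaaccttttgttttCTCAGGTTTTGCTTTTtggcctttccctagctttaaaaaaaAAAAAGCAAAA
Neat1, transcript bases 20652 to 20771: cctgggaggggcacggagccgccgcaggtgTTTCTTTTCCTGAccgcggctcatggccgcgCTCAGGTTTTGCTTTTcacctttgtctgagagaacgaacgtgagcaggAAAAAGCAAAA
The shared runs are the U-rich stretch, written here with T, a further T-rich stretch, and the motif, 40 bases in all. The motif occurs once in each transcript and, searched on the given strand, in 618 of 141767 GENCODE transcripts (0.436%). Right after it in the Malat1 transcript lies the small RNA of Malat1. The unspliced Neat1 transcript ends on the motif, so no base after it could be read there. The annotated small RNA Gm27702 is printed instead, and its position against Neat1 was not checked. Capitals mark shared runs of at least 8 bases.
Malat1, next 58 bases: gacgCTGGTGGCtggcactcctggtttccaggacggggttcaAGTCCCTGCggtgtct
Gm27702, all 56 bases: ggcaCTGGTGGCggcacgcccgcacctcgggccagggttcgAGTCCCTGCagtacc
Sequence was read by distance from the 5′ bound of each gene. With this placement all 6 different introns of the sense transcripts began with GT and ended with AG, and no shift of up to 10 bp to either side gave more than 1 of 6. These introns lie within transcript bases 555 to 1044 of Neat1 and 549 to 2989 of Malat1, so the placement further on was not checked. The Neat1 bounds span 20769 bp and its unspliced transcript has 20771 bases, while Malat1 has 6983 in both.

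Most sense transcripts of Neat1 lay over the proximal part, which the short and the long form share. Of 22 sense transcripts, 15 overlapped the 3177 bp between the 5′ bound and position 5842302, which was the most frequent 3′ end of transcripts with FT names. The remaining 7 lay only in the 17592 bp beyond it, which belong to the long form. This is 4.72 sense transcripts per kb in the proximal part and 0.398 per kb in the distal part. Sense exon blocks covered 100% of the proximal part and 34.9% of the distal part, and 44.8% of the whole gene. The border at 5842302 was taken from these same transcripts, and some of them run exactly from it to the 5′ bound. Full cover of the proximal part was thus fixed by this choice, and the counts per kb depend on it too. No sense transcript crossed position 5842302 by more than 250 bp to both sides, and the 2 WHITEHEAD transcripts crossed it by 65 bp.

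**Figure D1:**
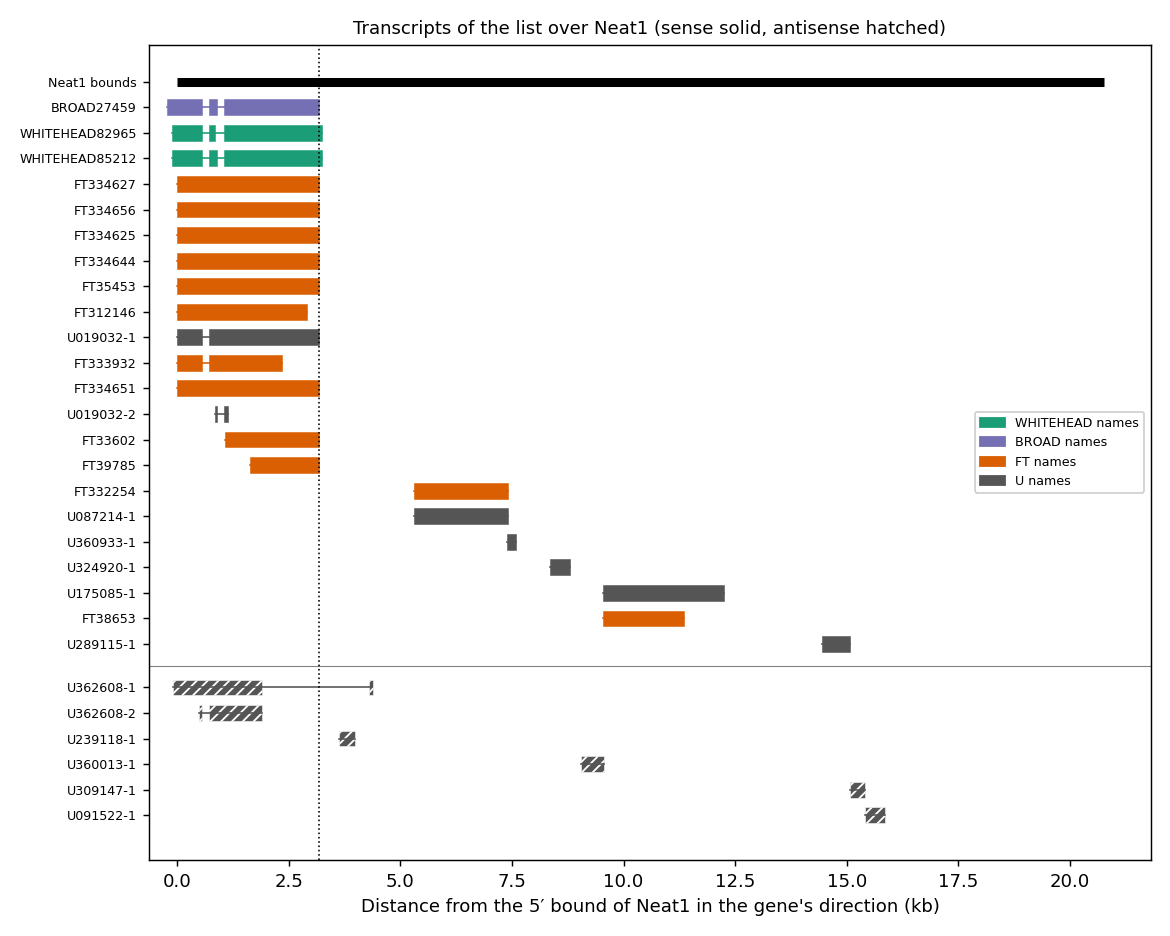
Transcripts over Neat1 by distance from the gene's 5′ bound (kb), 1 row each, with bars for exons, thin lines for introns, colours for name prefixes and the dotted line at the most frequent FT 3′ end. The 15 proximal sense transcripts stop at or before this line, or 65 bp past it, and the 7 distal ones are separate single-exon pieces.

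Of the 15 proximal transcripts, 7 had both ends within 10 bp of the 5′ bound and of position 5842302, which was chosen from these ends. The others began or ended elsewhere. FT334625, FT334644 and FT35453 had identical ends, at 5842302 and 5845478, and a length of 3177 nt. FT334627 (3179 nt), FT334656 (3177 nt) and FT334651 (3173 nt) differed from them by at most 4 bp at either end. The spliced U019032-1 was the other one of the 7. WHITEHEAD82965 and WHITEHEAD85212 began 129 bp before the 5′ bound and ended 65 bp past the common 3′ end. BROAD27459 began 226 bp before the 5′ bound and ended 2 bp short of the common 3′ end. FT312146 (2902 nt) and FT333932 (2169 nt) had the common 5′ end and stopped 275 and 840 bp early, while FT33602 (2099 nt) and FT39785 (1541 nt) had the common 3′ end and began 1071 and 1634 bp inside the gene. U019032-2, of 152 nt, lay wholly inside the proximal part.

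**Figure D2:**
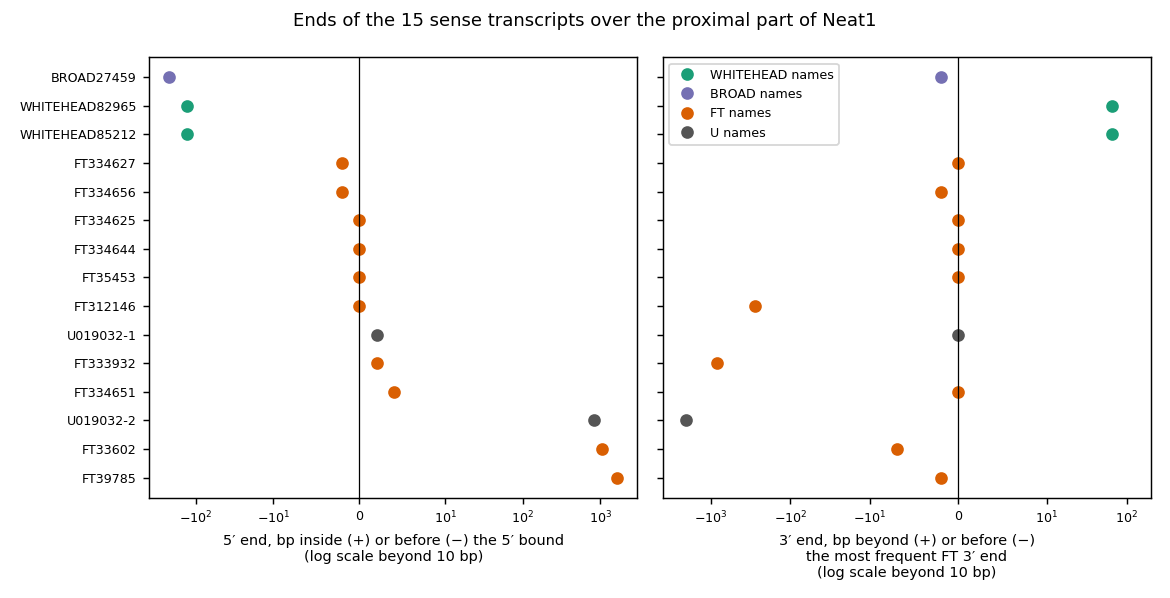
Ends of the 15 sense transcripts of the proximal part of Neat1, with the 5′ end against the gene's 5′ bound on the left and the 3′ end against position 5842302 on the right (bp, log scale beyond 10 bp), coloured by name prefix. Of all 22 sense transcripts 9 begin within 10 bp of the 5′ bound and 10 end within 10 bp of the common 3′ end, and BROAD and WHITEHEAD names begin 129 to 226 bp earlier.

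A polyadenylation signal preceded the common 3′ end. The 60 bases around it, with the signal AATAAA in capitals and the last transcribed base of position 5842302 at base 50 of the sequence, were read from the unspliced Neat1 transcript.
Neat1, transcript bases 3128 to 3187: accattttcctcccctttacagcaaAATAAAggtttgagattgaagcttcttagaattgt
All 10 sense transcripts that ended within 10 bp of this position had AATAAA in their last 50 bases, beginning 18 to 25 bases before the end. It is the same AATAAA in each of them, so they are not separate observations of a signal. AATAAA or ATTAAA, searched on the sense strand, is present in 1.95% of all 50-base windows of Neat1 and 6.33% of those of Malat1. Among the 22 other sense 3′ ends that fall inside the unspliced transcripts, 6 had a signal in the last 50 bases, and 3 of these were the shared end of the WHITEHEAD transcripts of Malat1, with AATAAA beginning 19 bases before it. The WHITEHEAD 3′ end of Neat1, 65 bp further downstream, had none.

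Sense splicing of Neat1 was found in the proximal part, with 3 different introns. All 9 unspliced proximal transcripts had FT names, and the 6 spliced ones carried all 4 prefixes. What a prefix stands for was not stated by the submitters' labels. An intron of 166 bp (5844759 to 5844924) was present in 5 sense transcripts, under U, FT, BROAD and WHITEHEAD names, and is also an intron of the annotated transcripts Neat1-202 and Neat1-203. It is printed with 20 exon bases on each side and its first and last bases in capitals.
Neat1 intron of 166 bp, transcript bases 535 to 740: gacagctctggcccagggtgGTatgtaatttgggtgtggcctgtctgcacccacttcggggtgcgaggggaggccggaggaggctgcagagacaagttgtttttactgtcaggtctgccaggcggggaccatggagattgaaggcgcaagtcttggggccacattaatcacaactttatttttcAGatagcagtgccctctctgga
U019032-1 had this intron only, between exons of 552 and 2457 nt, and FT333932 had it between exons of 552 and 1617 nt. BROAD27459 and the WHITEHEAD transcripts had a further intron downstream, which shared its end and differed in its start. In BROAD27459, WHITEHEAD85212 and U019032-2 it was 143 bp long and also annotated (Neat1-203), and in WHITEHEAD82965 it was 197 bp long. The middle exon was therefore 181 nt long in BROAD27459 and WHITEHEAD85212 and 127 nt long in WHITEHEAD82965. The alternative starts are shown with 15 exon bases before the capitals.
Intron of 143 bp, start: gggcacggcattttgGTaaaggtggaggac
Intron of 197 bp, start: cccctgggtcgtccgGTaagcctgtggagg
Common end: ggtttatcactatAGtgttcaccatggcaa
The score that the authors deposited, whose scale is not stated, was 37 for WHITEHEAD85212, 16 for WHITEHEAD82965 and 63 for BROAD27459. At least the score of WHITEHEAD82965 was present in 52.9% of WHITEHEAD names, and at least that of BROAD27459 in 13.6% of BROAD names.

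The part of Neat1 that belongs only to the long form held scattered single-exon transcripts. The 7 sense transcripts, 5 with U names and 2 with FT names, were 195 to 2716 nt long. U087214-1 and FT332254 had identical ends (5838075 to 5840178, 2104 nt), and U175085-1 (2716 nt) and FT38653 (1823 nt) shared their 5′ end at 5835940. U289115-1 (613 nt) was the most distal, and its 5′ end lay 14454 bp inside the gene. Between it and the 3′ bound 5702 bp carried no sense block, and 2200, 2058, 759 and 737 bp were without one elsewhere. Thus no sense 3′ end lay within 250 bp of the A-rich end of long Neat1. With no read counts, an empty stretch does not show that the RNA was absent.

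Malat1 was covered from end to end, but by pieces and by spliced transcripts. Its 11 sense transcripts comprised 6 with FT names, 3 with WHITEHEAD names and 2 with U names, at 1.58 per kb. Their blocks covered 100% of the 6983 bp, with 60.8% under FT names, 92.3% under U names and 98.4% under WHITEHEAD names. No unspliced transcript spanned the gene. The longest unspliced one, U019033-1 (4599 nt), ran from 2385 bp inside the gene to 1 bp past the 3′ bound, and 0.178% of the 70404 single-exon U transcripts of the list were at least as long. U233607-1 (1880 nt) began 535 bp inside the gene and overlapped the start of U019033-1. The FT pieces were 230 to 1755 nt long.

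**Figure D3:**
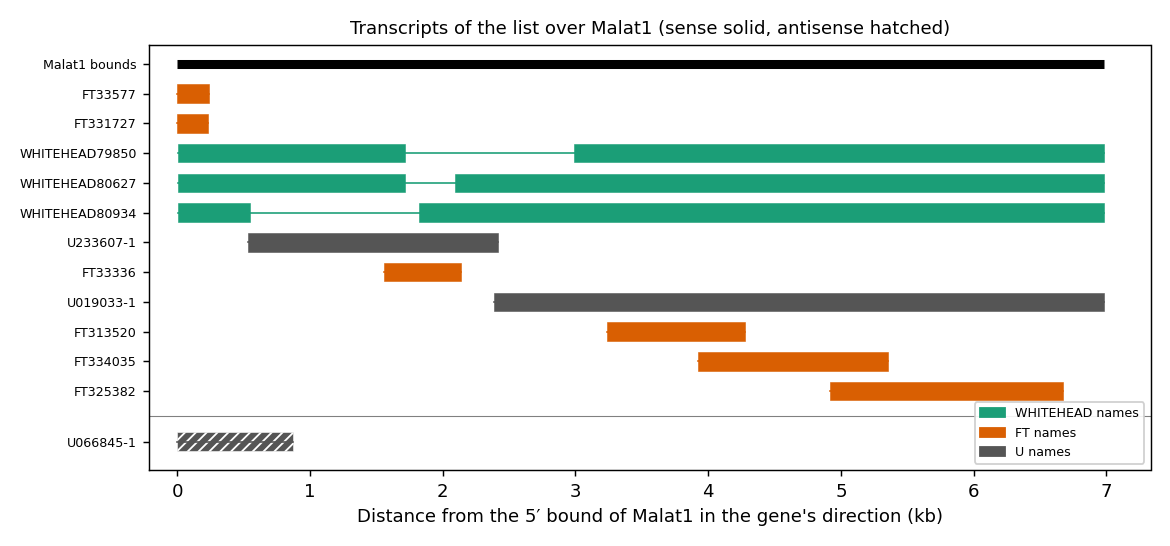
Transcripts over Malat1 by distance from the gene's 5′ bound (kb), 1 row each, with bars for exons, thin lines for introns and colours for name prefixes. The 3 WHITEHEAD transcripts run from 6 bp inside the 5′ bound to 3 bp before the 3′ bound, while each FT piece covers at most 1755 nt.

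All 3 WHITEHEAD transcripts had the same ends and 1 intron each. Their ends were 6 bp inside the 5′ bound and 3 bp before the 3′ bound. The introns were 377 bp (WHITEHEAD80627, 6597 nt spliced), 1270 bp (WHITEHEAD79850, 5704 nt) and 1271 bp (WHITEHEAD80934, 5703 nt). The first and second shared their start, and none of the 3 is an intron of an annotated Malat1 transcript. Their ends are printed because all followed the GT and AG pattern, with 15 exon bases beside the intron bases in capitals.
Introns of 377 and 1270 bp, start: tctgtaacttggatgGTaacttgtttactt
Intron of 377 bp, end: ttcttttccccttAGgtctgtctagaatcc
Intron of 1270 bp, end: tgaaatttttttcAGgtgacttaatgtatc
Intron of 1271 bp, start: agggaagatggaagtGTtaggctagccggg
Intron of 1271 bp, end: ttgcgggtgttgtAGgtttttctttttcag
Each of these introns was present in a single transcript. Their deposited scores were 4, 2 and 5, against a median of 19 over the 3352 WHITEHEAD names. U019033-1 and U233607-1 covered 92.3% of the gene without an intron.

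The sense transcripts that began at the start of Malat1 had FT or WHITEHEAD names. Other FT names, FT33336, FT313520, FT334035 and FT325382, began 1559 to 4918 bp inside the gene. The U names began 535 and 2385 bp inside it. FT33577 (239 nt) began on the 5′ bound, FT331727 (230 nt) 1 bp inside it, and the WHITEHEAD transcripts 6 bp inside it, so 5 of 11 sense transcripts began within 10 bp. The promoter in RefSeq (GRCm38.p6, chr19:5802623-5802922, minus strand) is printed with the 50 bases from the annotated start in capitals. RefSeq promoter entries used here matched 1 of the 2 genes.
Malat1 promoter: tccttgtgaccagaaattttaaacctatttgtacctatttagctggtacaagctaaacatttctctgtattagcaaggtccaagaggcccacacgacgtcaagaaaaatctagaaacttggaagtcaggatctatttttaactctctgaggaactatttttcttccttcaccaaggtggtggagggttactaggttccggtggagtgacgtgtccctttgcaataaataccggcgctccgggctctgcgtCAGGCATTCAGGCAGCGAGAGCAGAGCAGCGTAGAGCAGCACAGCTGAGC
Of 4 motifs searched on both strands, TGACGT was found, at 155 and 45 bases before the start. It is present in 7.51% of 32851 promoters of this length. TATAAA (13.6% of promoters), CCAAT (37.4%) and GGGCGG (35.7%) were not found in this window.

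The 3′ end of Malat1 differed between prefixes. U019033-1 and the WHITEHEAD transcripts ran across the A-rich end and the small RNA that follows it, up to the annotated end 292 bases further on. FT325382 (1755 nt) ended at 5796000, 18 bp before the last base of the A-rich motif and right before a run of 12 A. More generally, 6 of 18 FT transcripts in sense had at least 10 A among the 20 bases after their 3′ end, against 0 of 8 U transcripts with such bases to read. These were FT325382 with 17 A, FT331727 with 12, FT33336 with 11 and FT33577 with 10 in Malat1, and FT38653 with 17 and FT312146 with 10 in Neat1. At least 10 A are present in 8.69% of all 20-base windows of Malat1 and in 2.09% of those of Neat1. The ends counted are not all separate. FT331727 and FT33577 ended close together, at 5802442 and 5802434, and several FT transcripts shared the common 3′ end of Neat1. U087214-1 and FT332254 had the same 3′ end, with 9 A after it. The part of such A stretches in these 3′ ends was not tested.

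**Figure D4:**
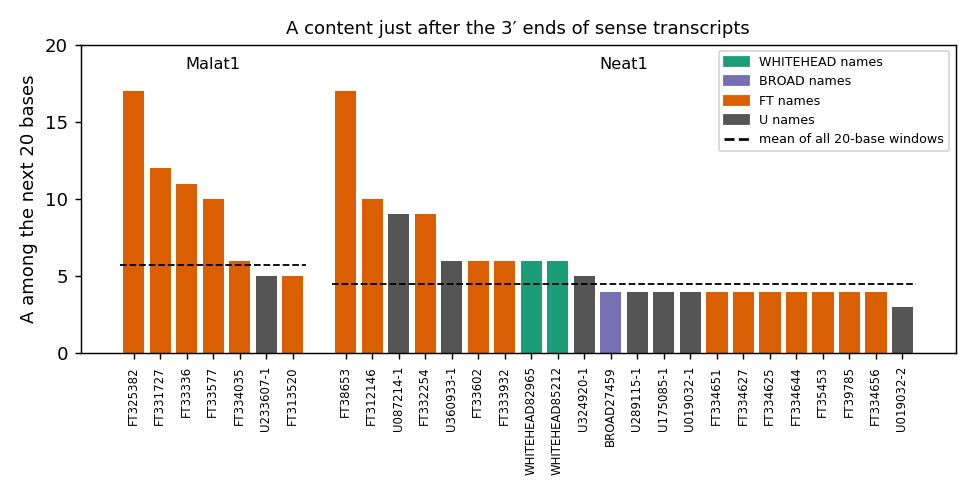
Number of A among the 20 bases after the 3′ end of each sense transcript of Malat1 (left) and Neat1 (right), coloured by name prefix, with the mean over all windows of the gene as a dashed line (5.72 and 4.53). The 6 bars at 10 or above are FT transcripts, and the transcripts with the common 3′ end of short Neat1 have 4 to 6.

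Antisense transcripts were present over both genes and had U names throughout. Neat1 had 6 and Malat1 had 1, set against 22 and 11 in sense. The Malat1 antisense transcript U066845-1 (870 nt, 5801803 to 5802672) had its 3′ end on the very position of the 5′ bound of Malat1. All of its bases lay under sense blocks too, which was fixed in advance because these blocks covered 100% of Malat1. Of the 3592 bp covered in antisense at Neat1, 1905 bp (53%) were also covered in sense, beside 44.8% of the whole gene. Of the 3592 bp, 1890 bp lay in the proximal part, whose full sense cover was fixed by the choice of border. In the distal part, 34.9% covered in sense, 1702 bp were covered in antisense. The only overlap there was the 15 bp that U360013-1 shared with U175085-1 and FT38653.

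Of the 6 antisense transcripts of Neat1, 2 were spliced. U362608-1 (2059 nt) began in the distal part at 5841104, with a first exon of 68 nt. It was spliced over 2417 bp into an exon of 1991 nt, and ended 101 bp beyond the 5′ bound of Neat1. U362608-2 had an intron of 166 bp at the same positions as the sense intron printed above, which on the plus strand begins with CT and ends with AC.
U362608-2 intron, start: agagggcactgctatCTgaaaaataaagtt
U362608-2 intron, end: acccaaattacatACcaccctgggccagag
Introns present at the same positions on both strands were 1 of 8 in the window and 44 of 40018 (0.11%) in the list. Whether U362608-2 is an RNA of the plus strand was not tested. The 4 unspliced antisense transcripts, U239118-1, U360013-1, U309147-1 and U091522-1, lay in the distal part and were 321 to 505 nt long.

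In the distal part some antisense transcripts pointed away from sense transcripts, and others pointed towards them, such as U309147-1 and U289115-1. Whether the 5′ ends of these pieces are starts of transcription was not tested. U360013-1 and the shared start of U175085-1 and FT38653 overlapped by 15 bp, with their 5′ ends 14 bp apart. U362608-1 and the shared start of U087214-1 and FT332254 lay head to head without overlap, 926 bp apart, and U239118-1 lay head to head with the same start, 1315 bp apart. No transcript of either strand lay in the 22037 bp between the genes. Downstream of Malat1, U151174-1 (336 nt) and U101236-1 (434 nt) lay 1513 and 2583 bp beyond its 3′ bound on the same strand. Upstream of Neat1, U038708-1 (465 nt, plus strand) began 3030 bp before the 5′ bound, and its intron of 2397 bp equals an intron of Frmd8os-201, an annotated antisense gene.

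The name prefixes of the window were set against those of the whole list. FT names made up 41.9% of its transcripts (Wilson 95% interval 28.4 to 56.7%) and 10.7% of the list. U names made up 44.2% (30.4 to 58.9%) and 79.2%. WHITEHEAD names made up 11.6% (5.07 to 24.5%) and 3.05%, and BROAD names 2.33% (0.412 to 12.1%) and 7%. Transcripts with more than 1 exon, after blocks with gaps under 30 bp were joined, were 27.9% (16.7 to 42.7%) and 29.9%. The plus strand held 18.6% (9.74 to 32.6%) and 50%. The median length was 1880 nt in the window and 513 nt in the list, which also reflects the mix of prefixes. It was 505 and 476 nt for U names and 2101.5 and 1530 nt for FT names. For the 5 WHITEHEAD names of the window it was 5703 nt, against 743.5 nt in the list. The 1 BROAD name had 3092 nt, against a median of 355 nt. The intervals cover counting error only and treat transcripts of 1 gene as independent, which they are not.

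**Figure D5:**
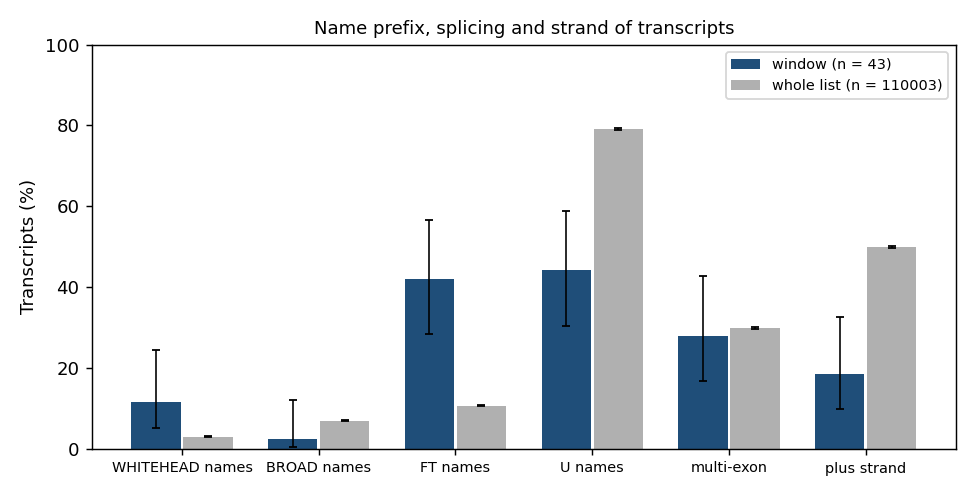
Shares (%) of transcripts by name prefix, with more than 1 exon and on the plus strand, in the window (dark, n = 43) and in the whole list (light, n = 110003), with Wilson 95% intervals. FT names take 41.9% in the window and 10.7% in the list, while the shares with more than 1 exon are 27.9% and 29.9%.

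The window held many transcripts for its length. Laid in 973 tiles of 60000 bp, the chromosome held a median of 2 transcripts per tile and at most 36, with 213 tiles empty, against 43 in the window. The tiles count the window's own transcripts too, and the window is split between tiles. The tile with 36 can therefore be one that holds part of the window. The window was placed around known genes and the tiles were not, so this is a description of the list.

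Among other nuclear noncoding RNAs the number of transcripts varied widely. Names came from runs of intron, exon and intron lengths matched to the annotation, which needs at least 3 exons. By this match Neat1 had 2 transcripts, BROAD27459 and WHITEHEAD85212, and Malat1 cannot be named. Of 9 other nuclear RNAs that can be matched, 5 were found, a share near that of all matchable genes not annotated as protein-coding (3521 of 6551, 53.7%). Firre, an RNA made from the X chromosome, had 160 transcripts, and Pvt1, the neighbour of Myc, had 180. Miat had 6, Xist, the RNA that silences an X chromosome, had 2, and Airn, which silences imprinted genes, had 1.

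Protein genes tied to these RNAs were not named in the list. None of 12 genes for paraspeckle proteins, of 10 for nuclear speckle proteins and of the 5 matchable neighbouring coding genes was found, where 320 of all 18553 matchable protein-coding genes were (1.72%), so these counts show nothing particular to the lists. The same held for 8 matchable markers of embryonic stem cells, such as Pou5f1 and Nanog, and for 8 of feeder fibroblasts, such as Col1a1 and Vim. The labelled cell type could therefore not be checked, and RNA from feeder cells and from stem cells cannot be told apart in any transcript above.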

How the data were processed

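RNA of V6.5 cells was sequenced as 1 polyadenylated and 1 ribosomal-depleted library. The submitters' processing notes name TopHat and mm9. For TopHat's version, the assembly, filters and pooling, the sources used here give nothing. The deposited list has 12 BED columns, and its header names mm9. The score is a whole number deposited by the authors, always 0 for U names and on other scales for the other prefixes, so it was only described.

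Overlap needed at least 1 bp. Exons were made by joining blocks less than 30 bp apart. The bounds of the genes are those of the selection rule. Sequence came from GENCODE M21 transcripts (GRCm38) and RefSeq promoters, and no coordinate was converted between builds. An intron was called annotated where its mm9 start and end had the same numbers as an annotated intron in GRCm38. This assumes that both builds share their numbers here. Counts of 300 simulated transcripts tested the structure match, which returned the own gene for 300. The simulated transcripts kept all inner exon and intron lengths exact, so this checked the code only. In the list 8764 of 15282 transcripts with 3 or more exons were matched (57.3%). With 1 library per group and no read counts there is no depth, no replicate and no test.

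The rule for named transcripts took every transcript over either gene where a gene and strand had at most 10, and otherwise the spliced, the longest and those with ends nearest the bounds. All were reported, and the splice sequence of 1 antisense transcript of Neat1 is not reported here. The members, lists and alternatives were chosen with earlier results of these data known. Python 3.11.15, scipy 1.17.1 and matplotlib 3.10.9 were used.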

Additional observations from a re-analysis of the deposited data

How the results depend on the processing

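Of 43 values under alternatives, 35 stayed within 1.5 times the reported count or within the interval of the reported share. Leaving out U names gave 24 transcripts in the window, 7 with more than 1 exon, 34.52% of Neat1 covered in sense, and 0 antisense transcripts at Neat1 and 0 at Malat1. Requiring at least 200 nt gave 43.96% of Neat1 against the reported 44.84%, a small change that was still not among the 35. Bases of 1 transcript are not separate observations, so for covered shares this tally has little meaning. An alternative added after the data were seen left out BROAD and WHITEHEAD names and gave 6 transcripts with more than 1 exon and 95.76% of Malat1 covered. Each follows from fewer transcripts being counted. The antisense results thus rest on U names alone, for which the score is always 0. No paired analysis was possible because each group has 1 library and the list has no column per library. The number of reads behind each transcript is unknown.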

Other observations

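Distances between consecutive transcripts of the distal part of Neat1 varied widely, with gaps of 14 to 2200 bp where they did not overlap. The antisense transcripts U091522-1 and U309147-1 were separated by 14 bp, and U309147-1 and the sense transcript U289115-1 by 14 bp as well. U360013-1 overlapped U175085-1 by 15 bp, and U360933-1 (195 nt) overlapped U087214-1, on the same strand, by 12 bp. In all, 3 transcripts of the window with FT names were deposited in several blocks and left a single exon after joining, namely FT325382, FT33336 and FT38653. Such transcripts made up 6.98% of the window (Wilson 95% interval 2.4 to 18.6%) and 3.27% of the whole list.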
